A study of Homo sapiens with 45 samples.

Results

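FOXA1, GATA3, SPDEF, TFAP2A, TFAP2C, XBP1, GRHL2, ELF3, EHF and TBX3 are transcription factors of the luminal mammary epithelium, the cell layer from which estrogen receptor-positive breast cancers arise. The members were taken by symbol from the table of gene counts, and all 10 were found among its 57353 symbols. Messenger RNA had been sequenced in 45 libraries of 3 established breast cancer cell lines. MM134 stands for the lobular carcinoma line MDA-MB-134-VI. MM330 stands for MDA-MB-330, also lobular, and HCC1428 is a ductal carcinoma line. All cells were deprived of hormone for 3 days, and each line had 5 groups of 3 libraries. The group siNT was transfected with an siRNA (a short RNA duplex that triggers breakdown of the transcript it matches) that has no target and received the vehicle, 0.01% ethanol. The group siNT_E2 had the same siRNA and received estradiol (E2), the hormone that activates the estrogen receptor, at 100 pM for 24 h. The groups siER_E2, siFOXA1_E2 and siMDC1_E2 received E2 as well, 24 h after an siRNA against the estrogen receptor, FOXA1 or MDC1, so no group had a knockdown without E2. Each line is 1 cell population, and the labels do not say whether each library of a group had a culture of its own, so p-values measure the spread between these libraries, which may be technical.

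In luminal cells, FOXA1 is a pioneer factor: it binds compacted chromatin and opens sites that the estrogen receptor (encoded by ESR1) and GATA3 then occupy. GATA3 is a zinc finger factor required for luminal differentiation, and TFAP2C and TFAP2A are AP-2 factors, of which TFAP2C is known to drive transcription of ESR1 itself. SPDEF, ELF3 and EHF are ETS factors of secretory and barrier epithelia, GRHL2 keeps epithelial junction genes active, TBX3 is a T-box factor of mammary development, and XBP1 is the factor that the unfolded protein response activates through splicing of its messenger RNA. MDC1, the other knockdown target, is a scaffold protein of the DNA damage response.

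Of the 10 genes, 7 had at least 1 window around a transcription start in RefSeq (build GRCh38.p14), 15 windows in all, each from 250 bases before to 50 bases after the start. Both strands of these windows were searched for 3 core words that forkhead factors such as FOXA1 bind (TGTTTAC as word 1, TATTTAC as word 2 and TGTTTGC as word 3, of equal length, so that 1 run of bases matches only 1 of them). They were also searched for the estrogen response element (GGTCA followed by TGACC after any 3 bases) and for the ER stress response element (CCAAT followed by CCACG after any 9 bases). In the latter name ER stands for the endoplasmic reticulum, not for the estrogen receptor. Of the 15 windows, forkhead words were found in 1 window each of SPDEF, GATA3, EHF and FOXA1. The ER stress response element was found in 1 window of XBP1. Over all 35116 windows of that length, 9.57% held at least 1 of the 3 forkhead words (3.42% TGTTTAC, 2.67% TATTTAC and 3.89% TGTTTGC), 0.0769% the ER stress response element and 0.057% the estrogen response element, which no window of the members held. The matches are shown because FOXA1 was knocked down here and because XBP1 is a factor of the unfolded protein response. Their part in the levels was not tested. A match is a description of these letters, not a binding site. Each line below gives bases outside every exon of the gene in GENCODE 29, 5′ to 3′ on the strand of the gene, with the match in capitals. Positions count back from the start. SPDEF holds TATTTAC on the opposite strand at -49 to -43 (chr6:34556334-34556579, minus strand), and GATA3 holds TGTTTGC at -138 to -132 (chr10:8045083-8045332, plus strand). EHF holds TGTTTAC at -196 to -190 of a start inside the gene (chr11:34632316-34632463, plus strand). FOXA1 holds TGTTTGC on the opposite strand at -235 to -229 (chr14:37595349-37595499, minus strand). That FOXA1 start also lies inside the gene, and all 250 bases before it are within the annotated gene. XBP1 holds the ER stress response element at -52 to -34 (chr22:28800598-28800819, minus strand).
SPDEF: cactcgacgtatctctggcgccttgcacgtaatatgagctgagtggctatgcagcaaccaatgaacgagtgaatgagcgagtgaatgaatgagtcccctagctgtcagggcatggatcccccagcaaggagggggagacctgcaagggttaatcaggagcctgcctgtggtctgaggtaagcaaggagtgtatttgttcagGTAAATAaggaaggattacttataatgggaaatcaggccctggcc
GATA3: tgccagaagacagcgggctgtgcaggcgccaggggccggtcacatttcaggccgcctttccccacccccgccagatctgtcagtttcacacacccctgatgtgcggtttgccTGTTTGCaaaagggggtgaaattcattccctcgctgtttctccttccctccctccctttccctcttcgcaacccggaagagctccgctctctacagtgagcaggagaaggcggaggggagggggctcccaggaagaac
EHF: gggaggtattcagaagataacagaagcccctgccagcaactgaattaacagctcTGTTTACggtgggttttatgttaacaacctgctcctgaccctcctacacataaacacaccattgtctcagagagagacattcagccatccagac
FOXA1: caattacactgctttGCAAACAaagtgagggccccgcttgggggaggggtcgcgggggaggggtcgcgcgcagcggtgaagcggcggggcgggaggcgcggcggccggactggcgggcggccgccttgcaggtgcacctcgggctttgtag
XBP1: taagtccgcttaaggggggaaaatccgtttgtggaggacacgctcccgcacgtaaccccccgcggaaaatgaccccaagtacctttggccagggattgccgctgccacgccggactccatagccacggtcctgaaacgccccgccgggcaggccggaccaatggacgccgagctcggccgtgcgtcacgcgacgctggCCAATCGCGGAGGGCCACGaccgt

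Library totals were 24752248 to 36738812 counts in MM134, 21043426 to 36566663 in MM330 and 23157548 to 35115207 in HCC1428. The members had between 101 counts (EHF in an siFOXA1_E2 library of MM134) and 54569 counts (GATA3 in an siNT library of HCC1428), and all 10 passed the filter on low counts in every line. In 11 libraries 0.337% to 0.494% of counts lay in processed pseudogenes, against 0.1231% to 0.1585% in the other 34. In HCC1428 the siNT and siER_E2 groups each had 1 library of the lower share. The luminal markers EPCAM, KRT8, KRT18, KRT19, MUC1 and ESR1 summed to between 5302 and 17650 CPM (counts scaled to one library size, here after TMM scaling within a line) in every library. Among them KRT8 had the highest mean, at 3695 to 5269 CPM across the lines. MUC1 had the lowest, at 3.36 CPM in MM134, 91.6 CPM in MM330 and 19.5 CPM in HCC1428. Basal markers stayed low, with TP63 highest at a mean of 1.8 CPM in MM134, 3.63 CPM in MM330 and 3.31 CPM in HCC1428, and all 9 immune markers were under 1 CPM. Of 8 fibroblast markers only COL1A1 exceeded 1 CPM, at a mean of 27.1 to 100.0 CPM across the lines, and of 7 endothelial markers only VWF did, at 4.54 CPM in MM330 and 1.48 CPM in HCC1428.

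In GENCODE 29 (build GRCh38), FOXA1 lies at chr14:37589984-37596059 and GATA3 at chr10:8045378-8075203. SPDEF lies at chr6:34537802-34556333, TFAP2A at chr6:10393186-10419659, TFAP2C at chr20:56629302-56639283 and XBP1 at chr22:28794555-28800597. ELF3 lies at chr1:202007945-202017188, EHF at chr11:34621093-34661057, TBX3 at chr12:114670254-114684164 and GRHL2 on chromosome 8. FOXA1, SPDEF, TFAP2A, XBP1 and TBX3 are on the minus strand, and the table counts reads per whole gene.

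Levels of the members differed more between lines for some factors than between treatments. Compared per length of exon (RPKM, CPM divided by the length of all exons in kilobases), GATA3 was the most abundant member in siNT of MM134, at 359.0 RPKM, followed by XBP1 at 261.0, FOXA1 at 134.0 and SPDEF at 126.0. EHF at 7.17 RPKM and ELF3 at 4.58 RPKM were the least abundant there. TBX3 had the widest span: its group means ran from 9.88 CPM in siNT_E2 of HCC1428 to 611.0 CPM in siFOXA1_E2 of MM134, a 61.8-fold range, whereas within a line they spanned 1.75-fold in MM134, 2.28-fold in MM330 and 1.52-fold in HCC1428. GRHL2 had the narrowest, from 135.0 CPM in siNT of HCC1428 to 235.0 CPM in siNT of MM330, a 1.74-fold range. EHF ran from 3.63 to 48.6 CPM, a 13.4-fold range, and 8.65-fold of that lay within MM134. These ranges use CPM scaled within each line.

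Without E2, 8 of the 10 members differed between MM134 and HCC1428 (75.6% of 21447 genes tested were called in that comparison), 9 between MM330 and HCC1428 (73.0% of genes) and 9 between MM134 and MM330 (72.4% of genes). Called means an adjusted p below 0.05 in edgeR's quasi-likelihood test with Benjamini-Hochberg adjustment over all genes. TBX3 was 34.8-fold higher in MM134 than in HCC1428 (log2 difference 5.12 ± 0.07 SE, adjusted p = 1.3e-40) and 9.18-fold higher than in MM330. TFAP2C ran the other way, 5.04-fold higher in HCC1428 than in MM134 (log2 -2.33 ± 0.05, adjusted p = 7.9e-34). XBP1 was 3.21-fold higher in MM330 and 2.72-fold higher in MM134 than in HCC1428, and SPDEF was 3.5-fold higher in MM330 than in MM134. ELF3 was 3.46-fold lower in MM134 than in HCC1428, and its levels in MM330 and HCC1428 were not told apart (log2 0.08 ± 0.06, adjusted p = 0.25). FOXA1 was 1.44-fold higher in MM330 than in HCC1428, with no difference called between MM134 and HCC1428 (log2 0.05 ± 0.05, adjusted p = 0.36), and GRHL2 likewise (log2 0.07 ± 0.04, adjusted p = 0.11). The call on EHF between MM134 and HCC1428 (log2 -0.18 ± 0.07, adjusted p = 0.016) was lost without the filter on low counts (adjusted p = 0.21), without HCC1428 siNT replicate 3 (0.12) and without MM134 siNT replicate 2 (0.056) or 3 (0.10).

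**Figure D1:**
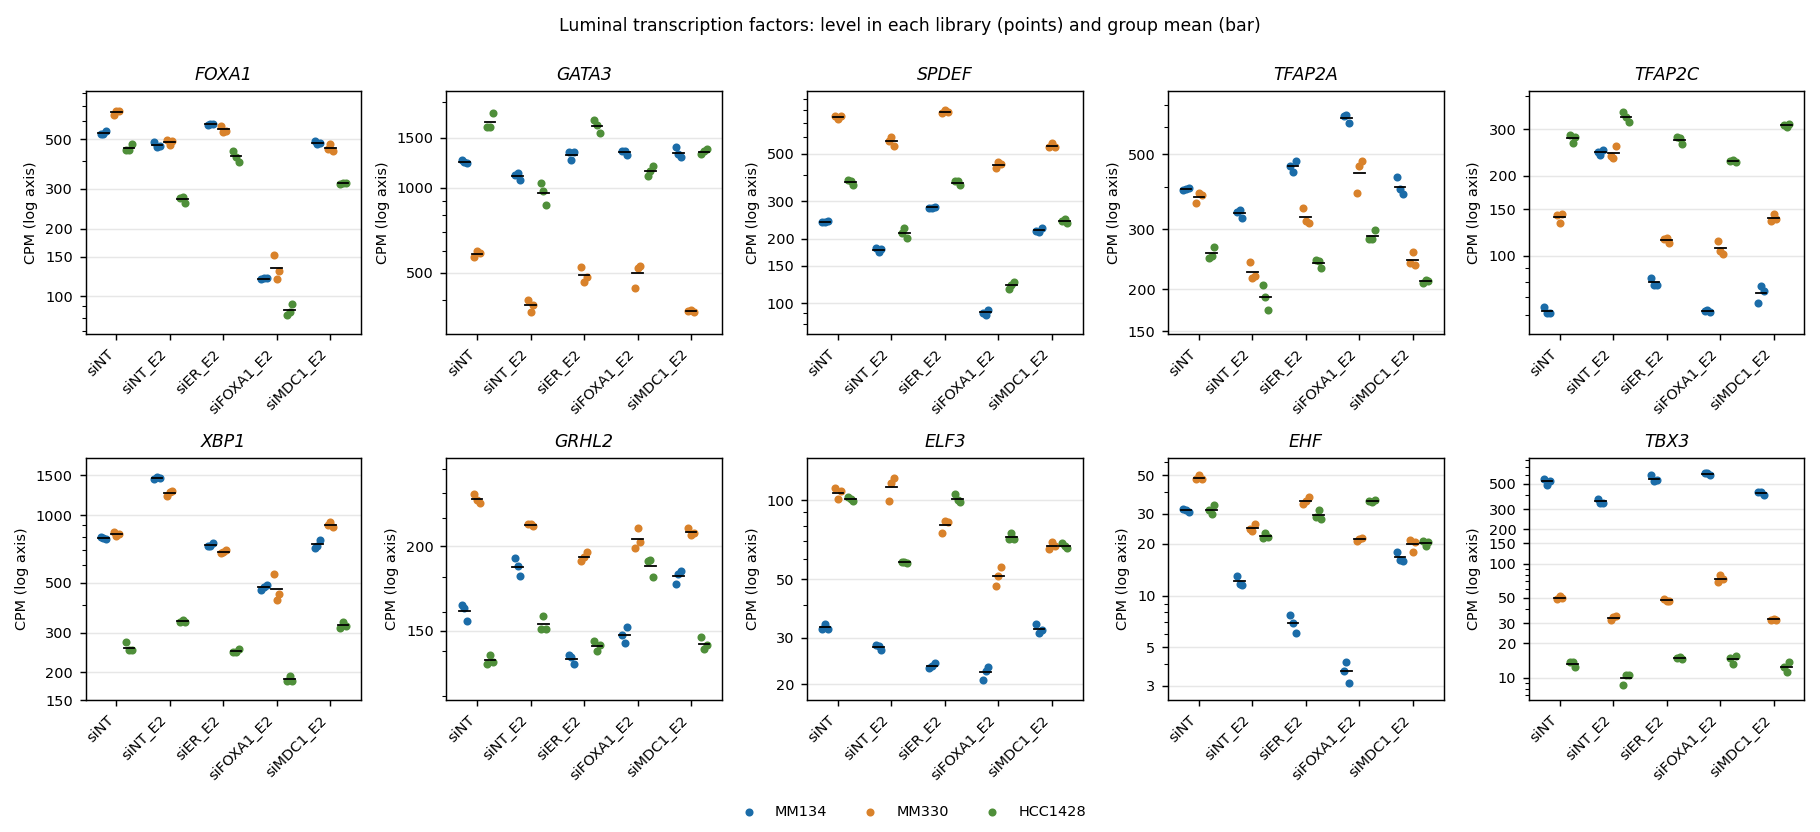
Level of each member in every library, in CPM on a log axis, by group along the horizontal axis and coloured by cell line, with the mean of 3 libraries as a bar. TBX3 sits between 338 and 623 CPM in MM134 and between 8.61 and 15.5 CPM in HCC1428, and EHF of MM134 descends to 3.11 to 4.13 CPM in siFOXA1_E2.

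FOXA1, the pioneer factor and the target of 1 of the knockdowns, was lower in siFOXA1_E2 in all 3 lines. In MM134 its 3 libraries fell from 484, 463 and 464 CPM in siNT_E2 to 119, 120 and 120 CPM (3.92-fold, log2 -1.97 ± 0.03, adjusted p = 2.5e-22). In MM330 they fell from 495, 471 and 491 CPM to 153, 119 and 130 CPM (3.62-fold, log2 -1.86 ± 0.07), where replicate 1 was the highest of the knockdown group. In HCC1428 they fell from 274, 277 and 261 CPM to 82.8, 85.2 and 91.9 CPM (3.13-fold, log2 -1.64 ± 0.05). The groups stood apart in every line. The other knockdowns also met their targets. ESR1 fell in siER_E2 against siNT_E2, from 573 to 65.9 CPM in MM134, from 275 to 21.5 CPM in MM330 and from 413 to 206 CPM in HCC1428. MDC1 fell in siMDC1_E2 from 186 to 42.7 CPM, from 195 to 39.8 CPM and from 168 to 43.9 CPM, respectively.

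E2 lowered FOXA1 in all 3 lines, to a different extent in each. The siNT libraries of MM134 held 528, 528 and 543 CPM, above the siNT_E2 range, and the fall was 0.18 ± 0.03 on the log2 scale (adjusted p = 5.7e-06). In MM330 the level went from 639, 669 and 665 CPM to the siNT_E2 values above (log2 -0.44 ± 0.06, adjusted p = 4.7e-05). In HCC1428 it went from 449, 446 and 475 CPM (log2 -0.75 ± 0.04, adjusted p = 2.5e-11), so the fall was largest there. The difference from HCC1428 passed the test in MM134 (log2 0.60) and in MM330 (log2 0.31). Receptor knockdown raised FOXA1 against siNT_E2, by log2 0.31 ± 0.03 in MM134, 0.19 ± 0.06 in MM330 and 0.63 ± 0.04 in HCC1428. The MM330 value (adjusted p = 0.03) was lost without siER_E2 replicate 1 (log2 0.16, adjusted p = 0.11), without siNT_E2 replicate 2 (0.16, 0.10) or 3 (0.19, 0.058), and among the libraries of lower pseudogene share (0.21, 0.081).

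Under E2, all 10 members were called in MM134, where 54.4% of 17744 genes were called, 3 higher (27.2% of genes were higher) and 7 lower (27.2% lower). In MM330, 9 of 10 were called against 26.3% of 17834 genes, 2 higher (13.7%) and 7 lower (12.6%), and in HCC1428 all 10 against 54.8% of 18286 genes, 3 higher (29.1%) and 7 lower (25.7%). The members' median log2 difference was -0.21, -0.41 and -0.47, respectively, against -0.03, 0.00 and -0.03 over all genes. TFAP2C and XBP1 rose in all 3 lines, and FOXA1, GATA3, SPDEF, TFAP2A, EHF and TBX3 fell in all 3. These are 8 of 10 members with the same called direction in every line, against 14.9% of the 14933 genes tested in all lines. The members were chosen with earlier results of these data known, so this share and those below do not test the set. GRHL2 and ELF3 did not share a direction.

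**Figure D2:**
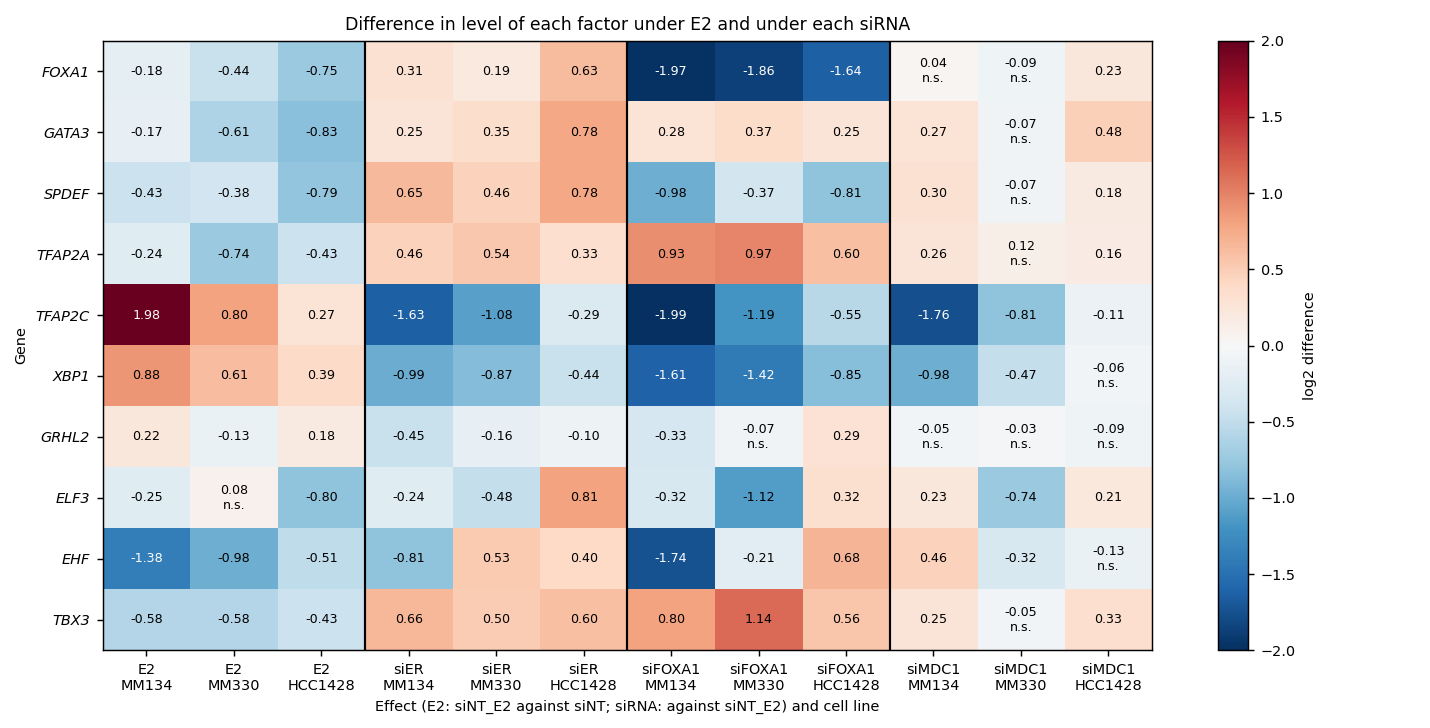
Log2 difference of each member (rows) under E2 (siNT_E2 against siNT) and under each siRNA (against siNT_E2) in the 3 lines (columns), red for higher and blue for lower, with n.s. where the adjusted p was 0.05 or above. TFAP2C and XBP1 form the rows that are red under E2 and blue under siER and siFOXA1, and FOXA1, GATA3, SPDEF, TFAP2A and TBX3 are blue under E2 and red under siER.

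TFAP2C, the AP-2 factor known to drive ESR1, had the largest rise with E2 in MM134. Its siNT libraries held 64.1, 61.2 and 60.9 CPM and its siNT_E2 libraries 245, 240 and 250 CPM (3.95-fold, log2 1.98 ± 0.04, adjusted p = 6.6e-20). In MM330 it rose from 143, 133 and 144 CPM to 237, 234 and 258 CPM (1.74-fold, log2 0.80 ± 0.05). In HCC1428, where it started higher, it rose from 286, 266 and 279 CPM to 347, 333 and 319 CPM (1.2-fold, log2 0.27 ± 0.04). The lines thus differed far more without E2 than with it, and the siNT_E2 means of MM134 and MM330 were 245 and 243 CPM. These means are scaled within each line, and all-library scaling shifts levels by log2 -0.11 in MM134 and 0.05 in MM330. All 3 knockdowns lowered TFAP2C against siNT_E2 in every line. In MM134 the 3 libraries stood at 82.7, 77.8 and 77.9 CPM in siER_E2, at 61.8, 62.4 and 61.3 CPM in siFOXA1_E2 and at 66.7, 76.8 and 73.8 CPM in siMDC1_E2. The siFOXA1_E2 level was not told apart from siNT (log2 -0.01 ± 0.04, adjusted p = 0.92), and the other two were above siNT by log2 0.36 ± 0.04 and 0.22 ± 0.04. The falls against siNT_E2 were 1.63 ± 0.04, 1.99 ± 0.04 and 1.76 ± 0.04 on the log2 scale, that is 3.09-fold, 3.97-fold and 3.39-fold. These 3 comparisons share the siNT_E2 libraries with each other and with the E2 comparison. In the same MM134 groups ESR1 itself was lower than the 573 CPM of siNT_E2, at 65.9 CPM in siER_E2, 117 CPM in siFOXA1_E2 and 129 CPM in siMDC1_E2, and its part in the TFAP2C values was not tested. In MM330 the 3 knockdowns lowered TFAP2C by log2 -1.08 ± 0.05, -1.19 ± 0.05 and -0.81 ± 0.05. In HCC1428 the values were -0.29 ± 0.04, -0.55 ± 0.04 and -0.11 ± 0.04.

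The last of these, TFAP2C under siMDC1 in HCC1428, is marginal (adjusted p = 0.036). It was lost without any 1 of the 3 siMDC1_E2 libraries (adjusted p = 0.069, 0.12 and 0.062), without siNT_E2 replicate 2 (0.17) or 3 (0.10), with the compared libraries only (0.14), among libraries of lower pseudogene share (0.27) and without the filter (0.055).

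XBP1, the factor of the unfolded protein response, moved in the same directions as TFAP2C. In MM134 it rose with E2 from 796, 793 and 782 CPM to 1442, 1475 and 1459 CPM (1.84-fold, log2 0.88 ± 0.03, adjusted p = 3.5e-16), and in MM330 from 841, 806 and 824 CPM to 1216, 1269 and 1276 CPM (1.52-fold, log2 0.61 ± 0.06). In HCC1428, where its level was lowest, it rose from 273, 250 and 250 CPM to 335, 341 and 335 CPM (1.31-fold, log2 0.39 ± 0.04). No siNT library reached the siNT_E2 range in any line. Receptor knockdown brought XBP1 down to 725, 731 and 751 CPM in MM134 (log2 -0.99 ± 0.03), to 680, 686 and 696 CPM in MM330 (-0.87 ± 0.06) and to 246, 247 and 253 CPM in HCC1428 (-0.44 ± 0.04). FOXA1 knockdown brought it lower still, to 462, 479 and 489 CPM in MM134 (3.06-fold below siNT_E2, log2 -1.61 ± 0.03), to 544, 420 and 445 CPM in MM330 (2.67-fold, -1.42 ± 0.07) and to 183, 193 and 183 CPM in HCC1428 (1.81-fold, -0.85 ± 0.04). These levels lay below siNT as well, by log2 -0.73, -0.81 and -0.47, each called. MDC1 knockdown lowered XBP1 in MM134 to 715, 730 and 776 CPM (log2 -0.98 ± 0.03) and in MM330 to 905, 929 and 885 CPM (-0.47 ± 0.06). In HCC1428 it stood at 315, 334 and 321 CPM, a difference that did not pass the test (log2 -0.06 ± 0.04, adjusted p = 0.24).

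The 27 genes listed as XBP1 targets, which serve protein folding, secretion and disposal in the endoplasmic reticulum, were all tested in each line. Under E2, 18 rose and 5 fell in MM134 (27.2% and 27.2% of all genes tested), 11 rose and 3 fell in MM330 (13.7% and 12.6%), and 15 rose and 7 fell in HCC1428 (29.1% and 25.7%). Their medians were log2 0.27, 0.10 and 0.17, against -0.03, 0.00 and -0.03 over all genes. HSPA5, the main chaperone of that compartment, rose in MM134 by log2 1.13 ± 0.04, and SDF2L1, a cofactor of such chaperones, by 1.12 ± 0.06. WFS1, a membrane glycoprotein of that compartment, rose in MM330 (0.75 ± 0.04) and HCC1428 (0.79 ± 0.04). HERPUD1, which takes part in the disposal of misfolded proteins, went against the list and fell in all 3 lines (-0.37 ± 0.06 in MM134, -0.54 ± 0.05 in MM330 and -0.81 ± 0.04 in HCC1428). Receptor knockdown gave 4 higher and 19 lower in MM134 (29.3% and 27.9% of all genes), 5 and 8 in MM330 (15.1% and 17.4%), and 6 and 14 in HCC1428 (22.5% and 28.7%). Under FOXA1 knockdown, where XBP1 was lowest, the counts were 11 higher and 11 lower in MM134 (27.9% and 28.5% of all genes), 2 and 20 in MM330 (24.4% and 24.6%), and 6 and 12 in HCC1428 (24.1% and 29.5%). The medians there were log2 0.04, -0.33 and -0.08, against 0.01, -0.01 and -0.03 over all genes. SSR1, a subunit of the translocon-associated complex, fell in each line there, by log2 -1.05 ± 0.03, -1.06 ± 0.05 and -0.93 ± 0.05. Under MDC1 knockdown the counts were 4 and 15 in MM134 (25.4% and 25.0%), 3 and 4 in MM330 (10.4% each way), and 8 and 4 in HCC1428 (13.2% and 15.9%). Splicing of XBP1 messenger RNA cannot be read from counts per gene.

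**Figure D3:**
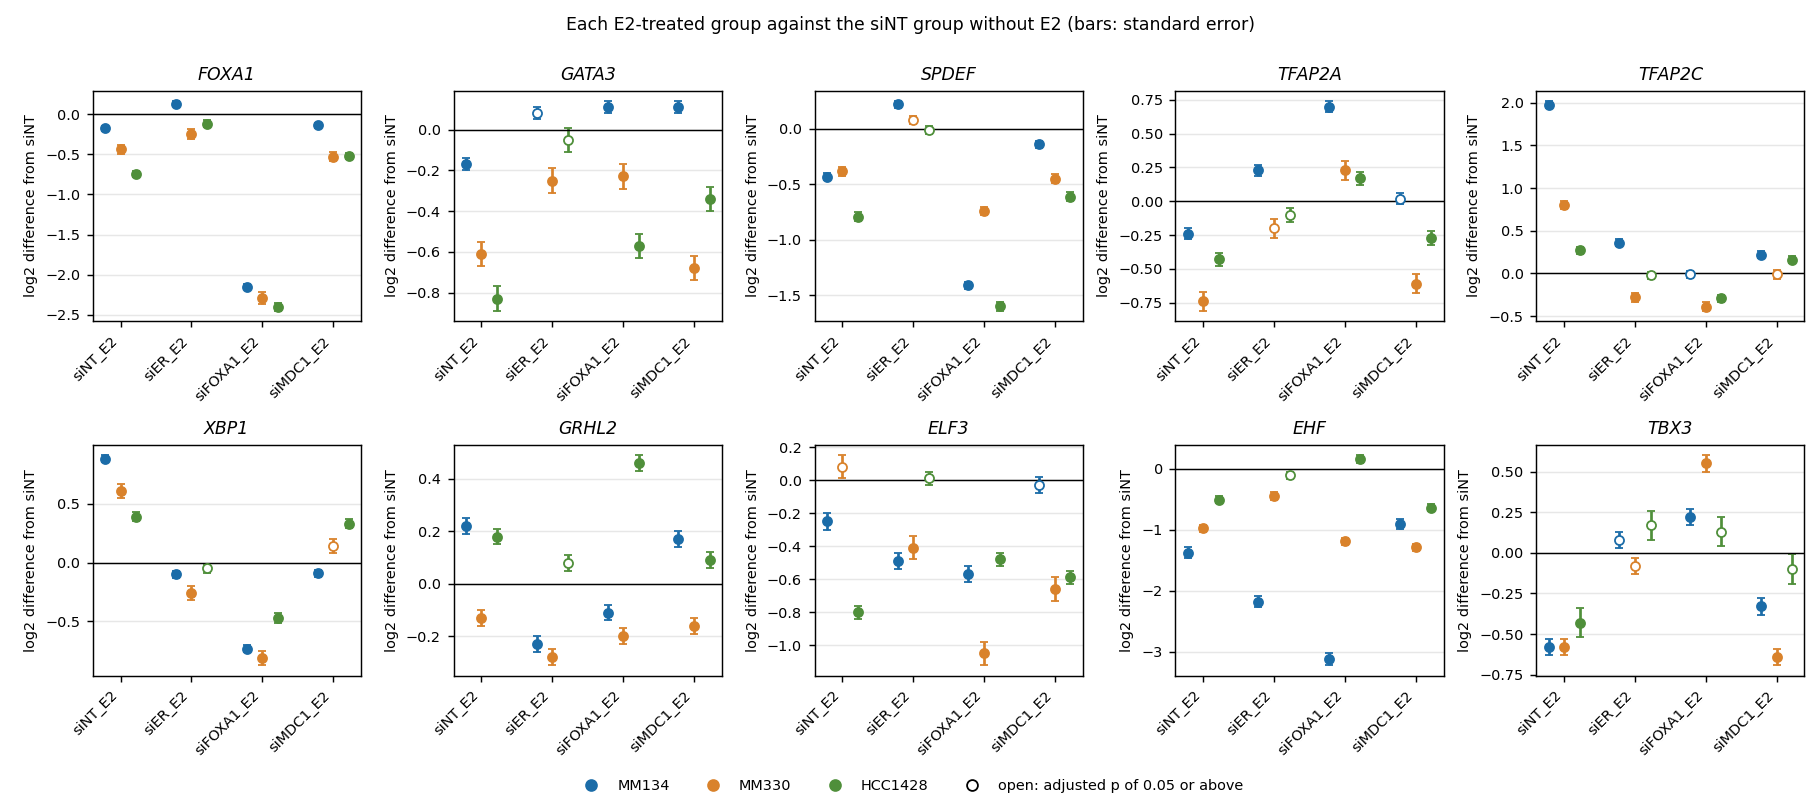
Log2 difference of every E2-treated group from the siNT group without E2, with its standard error, for each member and line; open points had an adjusted p of 0.05 or above. For TFAP2C the siNT_E2 points are at 1.98, 0.80 and 0.27, and the knockdown points lie between -0.39 and 0.36; for SPDEF the siFOXA1_E2 points are at -1.41, -0.74 and -1.60.

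Under receptor knockdown with E2, all 10 members were called against siNT_E2 in MM134 (57.2% of genes), in MM330 (32.5%) and in HCC1428 (51.2%). In MM134 5 were higher (29.3% of genes) and 5 lower (27.9%), in MM330 6 (15.1%) and 4 (17.4%), and in HCC1428 7 (22.5%) and 3 (28.7%). FOXA1, GATA3, SPDEF, TFAP2A and TBX3 rose and TFAP2C, XBP1 and GRHL2 fell in all 3 lines, 8 members against 17.7% of genes with the same called direction. The E2 and the receptor comparison share the siNT_E2 libraries, so their opposite signs are not separate evidence.

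GATA3, the zinc finger factor of luminal differentiation, fell with E2 and rose with receptor knockdown. With E2 it went from 1249, 1229 and 1226 CPM to 1109, 1123 and 1067 CPM in MM134 (log2 -0.17 ± 0.03), from 568, 599 and 589 CPM to 403, 364 and 387 CPM in MM330 (-0.61 ± 0.06) and from 1639, 1632 and 1835 CPM to 1037, 971 and 869 CPM in HCC1428 (-0.83 ± 0.06). The groups did not overlap in any line. In siER_E2 it stood at 1338, 1251 and 1332 CPM, at 524, 466 and 485 CPM and at 1727, 1658 and 1564 CPM, respectively, higher than siNT_E2 by log2 0.25 ± 0.03, 0.35 ± 0.06 and 0.78 ± 0.06. Knockdown of FOXA1, its partner on chromatin, also left GATA3 higher than siNT_E2, by log2 0.28 ± 0.03 in MM134, 0.37 ± 0.06 in MM330 and 0.25 ± 0.06 in HCC1428. Its siFOXA1_E2 mean was nevertheless below that of siNT in MM330 (499 against 585 CPM) and HCC1428 (1143 against 1702 CPM). Only in MM134 was it above siNT (1333 against 1235 CPM). GATA3-AS1, a non-coding gene on the opposite strand that overlaps GATA3 over 3035 bases, moved with it, with falls under E2 of log2 -0.20 ± 0.05, -0.95 ± 0.10 and -1.34 ± 0.10. The strand setting of the counting is not given in the sources used here, so reads of the overlap cannot be assigned with certainty. GATA3-AS1 did not exceed 58.5 CPM in any library. AL390294.1, a non-coding gene on the same strand that overlaps GATA3 over 1544 bases, did not exceed 11.8 CPM. The part of these overlaps in the GATA3 counts was not tested. The same caution holds for TFAP2A with TFAP2A-AS1 (at most 8.48 CPM), for ELF3 with ELF3-AS1 (at most 22.2 CPM), and for FOXA1 with TTC6, which overlaps it on the opposite strand over 213 bases (at most 69.5 CPM).

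TFAP2A, the other AP-2 factor, moved against TFAP2C. With E2 it fell from 391, 394 and 398 CPM to 338, 342 and 325 CPM in MM134 (log2 -0.24 ± 0.04), from 359, 383 and 380 CPM to 241, 215 and 218 CPM in MM330 (-0.74 ± 0.07) and from 247, 251 and 267 CPM to 205, 190 and 173 CPM in HCC1428 (-0.43 ± 0.05). Receptor knockdown raised it by log2 0.46 ± 0.04, 0.54 ± 0.07 and 0.33 ± 0.05. FOXA1 knockdown raised it further, to 647, 653 and 619 CPM in MM134 (1.91-fold over siNT_E2, log2 0.93 ± 0.04), to 383, 460 and 476 CPM in MM330 (1.96-fold, 0.97 ± 0.07) and to 281, 281 and 298 CPM in HCC1428 (1.52-fold, 0.60 ± 0.05). Replicate 1 of the MM330 group, with the highest FOXA1 of that group, had the lowest TFAP2A. In the HCC1428 group it was the reverse: the library with the highest FOXA1 (91.9 CPM) had the highest TFAP2A (298 CPM). A relation between the levels of single libraries was not tested. The TFAP2A levels of siFOXA1_E2 were also above siNT, by log2 0.70 ± 0.04, 0.23 ± 0.07 and 0.17 ± 0.05. In MM330 the ranges met at 383 CPM, and the call was lost without siFOXA1_E2 replicate 2 (adjusted p = 0.053) or 3 (0.076) or siNT replicate 1 (0.056), and the HCC1428 value among libraries of lower pseudogene share (0.16).

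Set beside each other per length, the AP-2 pair changed places in MM134. TFAP2A stood at 47.7 ± 0.40 RPKM (SD, n = 3) and TFAP2C at 20.7 ± 0.60 RPKM in siNT, whereas TFAP2A stood at 40.5 ± 1.1 and TFAP2C at 81.6 ± 1.6 RPKM in siNT_E2. In every knockdown group of MM134 the order was again that of siNT. TFAP2A and TFAP2C stood at 55.8 ± 2.2 and 26.4 ± 0.92 RPKM in siER_E2. They stood at 77.3 ± 2.2 and 20.6 ± 0.18 RPKM in siFOXA1_E2 and at 48.5 ± 2.8 and 24.1 ± 1.7 RPKM in siMDC1_E2. In MM330 the pair was about level in siNT (45.2 ± 1.6 and 46.5 ± 2.1 RPKM) and in siER_E2 (39.4 ± 2.3 and 38.2 ± 0.93 RPKM). The pair was apart in siNT_E2 (27.1 ± 1.7 and 80.9 ± 4.3 RPKM). Only in siFOXA1_E2 was TFAP2A above TFAP2C by more than their SDs (53.2 ± 6.0 and 35.5 ± 2.1 RPKM). In HCC1428 TFAP2C was above TFAP2A in all 5 groups, from 75.6 against 34.7 RPKM in siFOXA1_E2 to 111 against 22.9 RPKM in siNT_E2. The length used is the union of all annotated exons, 8.274 kb for TFAP2A and 3.005 kb for TFAP2C, so a gene with rarely used exons is understated and the order between the genes depends on it, while the changes of their ratio do not.

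**Figure D4:**
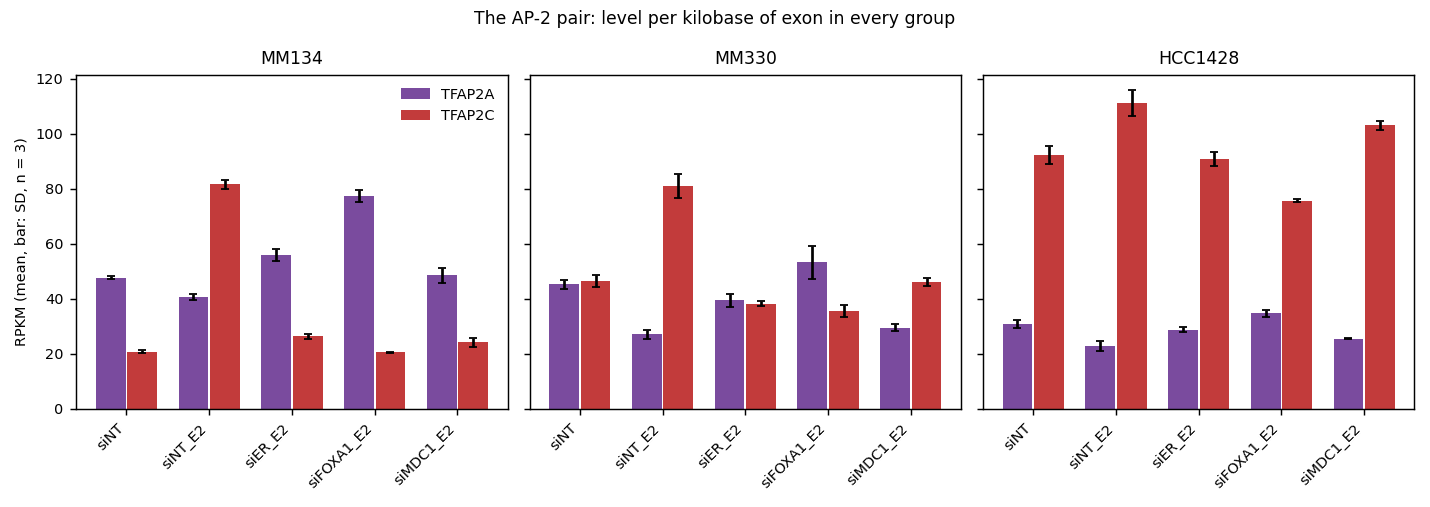
Level per kilobase of exon (RPKM, mean with SD over 3 libraries) of TFAP2A and TFAP2C in the 5 groups of each line. The TFAP2C bar exceeds the TFAP2A bar in siNT_E2 of every line, at 81.6 against 40.5 in MM134, 80.9 against 27.1 in MM330 and 111 against 22.9 in HCC1428.

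TBX3, the T-box factor, followed TFAP2A in direction at very different levels. With E2 it fell in MM134 from 551, 487 and 533 CPM to 371, 342 and 338 CPM (log2 -0.58 ± 0.05, adjusted p = 6.3e-10), in MM330 from 49.1, 51.5 and 50.4 CPM to 32.2, 33.8 and 34.9 CPM (-0.58 ± 0.05) and in HCC1428 from 13.7, 13.8 and 12.4 CPM to 8.61, 10.6 and 10.5 CPM (-0.43 ± 0.09). The HCC1428 call was lost among libraries of lower pseudogene share (log2 -0.29, adjusted p = 0.076). Receptor knockdown raised it by log2 0.66 ± 0.05, 0.50 ± 0.05 and 0.60 ± 0.09, and FOXA1 knockdown by 0.80 ± 0.05, 1.14 ± 0.05 and 0.56 ± 0.09. In MM330 the latter took it to 68.7, 79.0 and 73.8 CPM, 2.2-fold over siNT_E2 and above every siNT library. In HCC1428 the siFOXA1_E2 libraries (15, 13.2 and 15.5 CPM) overlapped those of siNT, with no difference called (log2 0.13 ± 0.09, adjusted p = 0.26).

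SPDEF, the ETS factor of secretory epithelium, fell with E2, rose with receptor knockdown and fell with FOXA1 knockdown in all 3 lines, the directions of FOXA1 itself. With E2 it fell from 241, 240 and 243 CPM to 182, 174 and 179 CPM in MM134 (log2 -0.43 ± 0.03), from 753, 731 and 751 CPM to 576, 597 and 547 CPM in MM330 (-0.38 ± 0.04) and from 378, 373 and 358 CPM to 214, 225 and 202 CPM in HCC1428 (-0.79 ± 0.04). Receptor knockdown raised it by log2 0.65 ± 0.03, 0.46 ± 0.04 and 0.78 ± 0.04. FOXA1 knockdown lowered it, to 90.5, 88.1 and 93.3 CPM in MM134 (1.97-fold below siNT_E2, log2 -0.98 ± 0.03), to 431, 458 and 446 CPM in MM330 (1.29-fold, -0.37 ± 0.04) and to 117, 122 and 126 CPM in HCC1428 (1.76-fold, -0.81 ± 0.04). Every siFOXA1_E2 library lay below every library of the other 4 groups of its line. Across the 12 groups without FOXA1 knockdown, after each line's mean was subtracted, the group means of SPDEF and FOXA1 had a Pearson r of 0.92, GATA3 and FOXA1 of 0.93 and TFAP2A and FOXA1 of 0.85. With the 3 siFOXA1_E2 groups added, the values over 15 groups were 0.91 for SPDEF, 0.22 for GATA3 and -0.59 for TFAP2A. These values describe group means that share libraries, lines and E2 treatment, and carry no test.

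FOXA1 knockdown called all 10 members in MM134 (56.3% of genes), 9 in MM330 (49.0%) and all 10 in HCC1428 (53.6%), with FOXA1 itself among them. In MM134 3 were higher (27.9% of genes) and 7 lower (28.5%), in MM330 3 (24.4%) and 6 (24.6%), and in HCC1428 6 (24.1%) and 4 (29.5%). GATA3, TFAP2A and TBX3 rose and FOXA1, SPDEF, TFAP2C and XBP1 fell in all 3 lines, 7 members against 25.1% of genes with the same called direction. At least 2-fold differences were seen for 4 members in MM134 (12.6% of genes), 5 in MM330 (17.5%) and 1 in HCC1428 (14.7%), where the 1 was FOXA1. ELF3 and EHF went opposite ways in the lobular lines and in HCC1428.

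ELF3 and EHF, related ETS factors of barrier epithelia, moved in opposite directions in at least 1 lobular line and in HCC1428 under knockdown of the receptor and of FOXA1. ELF3 fell with E2 in HCC1428 from 103, 101 and 99.7 CPM to 58.0, 58.3 and 57.8 CPM (log2 -0.80 ± 0.04) and in MM134 from 32.4, 33.9 and 32.5 CPM to 28.1, 28.0 and 26.9 CPM (-0.25 ± 0.05), while in MM330 its libraries at 111, 101 and 108 CPM overlapped those with E2 at 99.6, 116 and 121 CPM (0.08 ± 0.07, adjusted p = 0.52). Receptor knockdown raised ELF3 in HCC1428 to 106, 100 and 98.3 CPM (log2 0.81 ± 0.04) but lowered it in MM134 to 23, 23.5 and 24.0 CPM (-0.24 ± 0.05) and in MM330 to 75.3, 83.5 and 82.3 CPM (-0.48 ± 0.07). The differences of the effect from HCC1428 were log2 -1.10 in MM134 (adjusted p = 4.4e-12) and -1.32 in MM330 (adjusted p = 2.3e-15). FOXA1 knockdown likewise raised it in HCC1428 (0.32 ± 0.04, to 71.3, 74.8 and 70.9 CPM) and lowered it in MM134 (-0.32 ± 0.05, to 20.8, 22.5 and 23.2 CPM) and in MM330 (-1.12 ± 0.07, to 47.0, 51.7 and 55.6 CPM). Its antisense partner ELF3-AS1 did not follow it everywhere, since under receptor knockdown ELF3-AS1 rose in MM330 (0.41 ± 0.11) where ELF3 fell.

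EHF fell with E2 in all 3 lines, from 32.1, 31.6 and 30.6 CPM to 13.1, 11.7 and 11.5 CPM in MM134 (2.6-fold, log2 -1.38 ± 0.09), from 48.0, 50.3 and 47.5 CPM to 24.5, 23.7 and 26.0 CPM in MM330 (1.97-fold, -0.98 ± 0.06) and from 31.3, 29.9 and 33.7 CPM to 21.6, 23.1 and 21.9 CPM in HCC1428 (1.43-fold, -0.51 ± 0.06). In MM330 and HCC1428 receptor knockdown raised it again, to 34.2, 35.3 and 37.5 CPM (log2 0.53 ± 0.06) and to 28.8, 31.3 and 28.0 CPM (0.40 ± 0.06). In MM134 it fell further instead, to 7.76, 6.96 and 6.03 CPM (-0.81 ± 0.10). FOXA1 knockdown gave the lowest EHF levels of the series in MM134, 3.64, 4.13 and 3.11 CPM (3.34-fold below siNT_E2, log2 -1.74 ± 0.10, and 8.68-fold below siNT), and raised EHF in HCC1428 to 35.3, 35.0 and 36 CPM (0.68 ± 0.06). The difference between these 2 effects was log2 -2.46 (adjusted p = 3.2e-20), the largest between-line difference of any member in the 8 tested. In MM330 EHF fell slightly under FOXA1 knockdown (-0.21 ± 0.07, adjusted p = 0.014), a call lost without siNT_E2 replicate 3 (-0.17, adjusted p = 0.061).

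GRHL2, which keeps epithelial junction genes active, varied least. Its libraries lay between 134 and 192 CPM in MM134, between 190 and 239 CPM in MM330 and between 134 and 191 CPM in HCC1428. E2 raised it in MM134 (log2 0.22 ± 0.03) and HCC1428 (0.18 ± 0.03) and lowered it in MM330 (-0.13 ± 0.03, adjusted p = 0.0077). The MM330 call was lost without the filter on low counts (adjusted p = 0.093) and among libraries of lower pseudogene share (0.087). Receptor knockdown lowered it by log2 -0.45 ± 0.03 in MM134, -0.16 ± 0.03 in MM330 and -0.10 ± 0.03 in HCC1428. The last (adjusted p = 0.019) was lost under RLE scaling (0.053), in DESeq2 (0.056), with the compared libraries only (0.24), among libraries of lower pseudogene share (0.59) and without siER_E2 replicate 2 (0.076) or siNT_E2 replicate 3 (0.38) or 4 (0.098). FOXA1 knockdown lowered it in MM134 (-0.33 ± 0.03) and raised it in HCC1428 (0.29 ± 0.03), and in MM330 the value of -0.07 ± 0.03 did not pass the test (adjusted p = 0.087) except without siFOXA1_E2 replicate 2 (-0.10, adjusted p = 0.027).

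Under MDC1 knockdown the largest differences were those of TFAP2C and XBP1 in MM134, given above. In MM134 8 were called (50.3% of genes), 6 higher (25.4%) and 2 lower (25.0%), in MM330 4, all lower (20.8% of genes called, 10.4% lower), and in HCC1428 7 (29.1%), 6 higher (13.2%) and 1 lower (15.9%). The members called in MM330 were TFAP2C, XBP1, ELF3 (log2 -0.74 ± 0.07) and EHF (-0.32 ± 0.07). TFAP2C was the 1 member with the same called direction in all 3 lines, against 8.56% of genes. FOXA1 was not told apart from siNT_E2 in MM134 (log2 0.04 ± 0.03, adjusted p = 0.27) or MM330 (-0.09 ± 0.06, adjusted p = 0.40) and was higher in HCC1428 at 316, 318 and 320 CPM (0.23 ± 0.04, adjusted p = 4.3e-04). GATA3 was higher in MM134 (0.27 ± 0.03) and HCC1428 (0.48 ± 0.06). The HCC1428 count fell to 4 without siMDC1_E2 replicate 3. Beside TFAP2C, the HCC1428 values that could be lost were TFAP2A at 0.16 ± 0.05 (adjusted p = 0.022), with the replicate block (0.14) and without siMDC1_E2 replicate 2 (0.063) or 3 (0.058) or siNT_E2 replicate 4 (0.13), and TBX3 at 0.33 ± 0.09 (adjusted p = 0.013), without siMDC1_E2 replicate 3 (0.078) or siNT_E2 replicate 2 (0.084). TBX3 was also lost there among libraries of lower pseudogene share (0.066). GRHL2, not called there at -0.09 ± 0.03 (adjusted p = 0.050), passed without siFOXA1_E2 replicate 3 (0.043) or siMDC1_E2 replicate 1 (adjusted p just below 0.05), under RLE scaling (0.034), in DESeq2 (0.029) and in limma-voom (0.048).

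Tested directly over all 45 libraries, the E2 effect differed from that of HCC1428 in 7 members in MM134 (26.5% of 21447 genes) and in 9 in MM330 (28.3%). The effect of receptor knockdown differed in 8 (24.5%) and 6 (25.3%), that of FOXA1 knockdown in 8 (30.5%) and 9 (22.2%), and that of MDC1 knockdown in 4 (18.6%) and 7 (13.8%). TFAP2C and XBP1 were among them in each of the 8 tests, each time with a stronger change in the lobular line. The XBP1 value for E2 in MM330 (log2 0.22, adjusted p = 0.013) is the least certain of these. It was lost without the filter on low counts (0.11), among libraries of lower pseudogene share (0.12), without HCC1428 siNT replicate 1 (0.056) and without MM330 siNT replicate 2 (0.054).

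Against siNT, the cells without E2, receptor knockdown left few differences among the members in HCC1428 and more in the lobular lines. In HCC1428 1 of 10 was called (21.2% of genes), FOXA1 at log2 -0.12 ± 0.04 (adjusted p = 0.049). That call was lost without any 1 of 11 of the 15 libraries, and its adjusted p over these fits ran from 0.013 to 0.25. The other 9 had adjusted p-values from 0.12 to 0.94 and log2 differences from -0.11 to 0.17. In MM134 8 were called (32.3% of genes), with EHF 4.55-fold lower than siNT (log2 -2.18 ± 0.09) and TFAP2C higher (0.36 ± 0.04, 82.7, 77.8 and 77.9 CPM against 64.1, 61.2 and 60.9 CPM). In MM330 7 were called, all lower (20.2% of genes called, 11.5% lower and 8.66% higher), between log2 -0.25 and -0.45. Among libraries of lower pseudogene share the MM330 calls on FOXA1 (adjusted p = 0.095) and GATA3 (0.08) were lost. Receptor messenger RNA remaining in siER_E2 was 206 CPM in HCC1428, 65.9 CPM in MM134 and 21.5 CPM in MM330, and its part in these differences was not tested.

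The remaining comparisons gave the following counts. Against siNT, siFOXA1_E2 differed in 9 members in MM134 (56.8% of genes), 10 in MM330 (46.9%) and 9 in HCC1428 (48.5%), and siMDC1_E2 in 8 (49.1%), 8, all lower (34.9%, 17.1% lower), and 9 (48.4%). SPDEF was 2.66-fold, 1.67-fold and 3.04-fold below siNT in siFOXA1_E2. Between knockdowns, siFOXA1_E2 and siER_E2 differed in 8 (51.3%), 8 (45.9%) and 9 (42.9%) members. The siMDC1_E2 and siER_E2 groups differed in 8 (45.6%), 10 (30.6%) and 9 (41.1%), and siFOXA1_E2 and siMDC1_E2 in 9 (49.8%), 8 (48.8%) and 10 (45.4%).

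Other regulators of luminal cells were called in both directions. Of 22 such genes, 20 or 21 were tested in a line. Under E2, 9 rose and 10 fell in MM134 (54.4% of all genes tested were called), 10 and 7 in MM330 (26.3%), and 8 and 10 in HCC1428 (54.8%). ZNF703, a luminal corepressor, rose in each line (log2 1.94 ± 0.03, 1.73 ± 0.04 and 1.36 ± 0.04). Under receptor knockdown 6, 5 and 9 were higher and 8, 12 and 9 lower (57.2%, 32.5% and 51.2% of all genes called). Under FOXA1 knockdown 6 were higher in each line and 10, 11 and 11 lower (56.3%, 49.0% and 53.6%). There MYB fell in all 3 lines (log2 -2.77 ± 0.10 in MM134, -1.31 ± 0.08 in MM330 and -0.30 ± 0.04 in HCC1428), and so did MYBL1 (-1.32 ± 0.04, -1.69 ± 0.17 and -1.62 ± 0.05) and ZNF703 (-1.42, -1.16 and -0.50). Under MDC1 knockdown 8, 4 and 7 were higher and 10, 4 and 4 lower (50.3%, 20.8% and 29.1%).

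Of 31 paralogs of the members, 21 or 22 were tested in a line. Under E2, 2 rose and 13 fell in MM134 (27.2% and 27.2% of all genes), 3 and 7 in MM330 (13.7% and 12.6%), and 6 and 9 in HCC1428 (29.1% and 25.7%). GATA4, a relative of GATA3, rose with E2 where GATA3 fell (log2 2.14 ± 0.07 in MM134 and 1.88 ± 0.04 in HCC1428), with no call in MM330 (-0.35 ± 0.16, adjusted p = 0.13). Under receptor knockdown 14, 10 and 8 were higher and 4, 2 and 6 lower (57.2%, 32.5% and 51.2% of all genes called). Under FOXA1 knockdown 8 in each line were higher and 5, 8 and 7 lower (56.3%, 49.0% and 53.6%), and under MDC1 knockdown 13, 8 and 8 were higher and 3, 3 and 4 lower (50.3%, 20.8% and 29.1%). ELF5, an ETS factor of the alveolar lineage, rose under FOXA1 knockdown in MM330 (1.94 ± 0.13) and HCC1428 (1.34 ± 0.06), and GRHL3, a relative of GRHL2, rose in MM134 (2.62 ± 0.08), MM330 (1.38 ± 0.17) and HCC1428 (0.84 ± 0.19). Among 26 basal and mesenchymal regulators, of which 10 to 15 were tested, FOXA1 knockdown gave 7 higher and 5 lower in MM134 (27.9% and 28.5% of all genes), 7 and 3 in MM330 (24.4% and 24.6%), and 5 and 1 in HCC1428 (24.1% and 29.5%), with TP63, the basal lineage factor, higher in MM134 (1.45 ± 0.24), MM330 (4.75 ± 0.30) and HCC1428 (2.51 ± 0.17). TP63 was low, at a mean over all groups of 1.8 CPM in MM134, 3.63 CPM in MM330 and 3.31 CPM in HCC1428. Its rise does not stand for the list, in which genes were called both ways. The summed basal markers did not exceed 16.9 CPM in any library, and their part in the members' values was not tested. Of 30 structural and secretory luminal genes, 28 to 30 were tested, and FOXA1 knockdown gave, beside the same shares of all genes, 18 higher and 8 lower in MM134, 17 and 8 in MM330, and 11 and 9 in HCC1428. KRT18, a luminal keratin, rose in each (1.26 ± 0.03, 1.44 ± 0.05 and 0.61 ± 0.03) while TFF1, a secreted trefoil peptide induced by E2, fell (-3.63 ± 0.08, -2.14 ± 0.11 and -1.64 ± 0.09).

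Among 7935 genes with at least 10 CPM on average in each line, the gene whose group means ran closest to each member was found by Pearson r over 15 groups, after each line's mean was subtracted. For FOXA1, the 12 groups without its knockdown were used, and BCL2L2 (0.964) and CITED2 (0.963) were among the closest. For GATA3 it was its antisense neighbour GATA3-AS1 (0.933), for SPDEF CREB3L4 (0.963), a transcription factor of secretory cells, and for TFAP2A LPIN1 (0.959). TFAP2C ran closest to ELP2 (0.945), with SLC39A6 also close (0.937), XBP1 to LASP1 (0.955) and TBX3 to RIPK4 (0.938). The likeness was lower for ELF3 with FAM110A (0.895), EHF with PRRC1 (0.844) and GRHL2 with TSPAN5 (0.832). Apart from SLC39A6 and the genes named for FOXA1, these are the highest of 7935 values each, and none has a test. Which gene is closest depends on the measure: by Spearman's rho ELP2 ranked 65, RIPK4 62, LASP1 23, CREB3L4 8 and PRRC1 7 for their members. Without TMM scaling ELP2 stood at 0.906, below SLC39A6 at 0.935.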

How the data were processed

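Messenger RNA of 45 libraries from 3 cell lines had been sequenced with reads of 150 bases. The deposited table holds raw counts per gene symbol. The submitters' processing notes name STAR 2.6.0a, the builds GRCh38 and hg38, and limma. The counting tool, its annotation and its strand setting are not given in the sources used here. Of 57353 symbols, 16974 had no count, 2 were repeated and 27 had been turned into dates (0.195% of counts). No column belonged to a sample outside the series.

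Everything else was computed from these counts. For each line, 15 libraries were fitted with edgeR 4.0.16 (R 4.3.3; TMM scaling, genes kept by filterByExpr by group, quasi-likelihood test), giving 30 comparisons between groups. All 45 libraries were fitted together for 8 differences of effect between lines and 3 of the siNT level. P-values were adjusted over all genes tested (Benjamini-Hochberg), and a gene was called below 0.05. CPM used TMM-scaled totals within a line, and RPKM divided CPM by the exon-union length in GENCODE 29. Between within-line and all-library scaling, levels shift by log2 0.06 in HCC1428, -0.11 in MM134 and 0.05 in MM330. The scripts were tested on simulated counts.

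The members and lists were chosen with earlier results of these data known. The named genes were the members, ESR1 and MDC1 as targets, for each member the 3 genes with the highest line-centred correlation, TFF1, and from each list at most 5 called genes with the smallest p and at most 3 called against its majority; GATA4 in MM330 and other values given to complete a line are beside that rule. Alternatives were RLE scaling, no filter, a replicate block, DESeq2 1.42.0, limma-voom (limma 3.58.1), the compared libraries only, and each library left out. A term for the pseudogene class of a library and the 34 libraries of lower pseudogene share only were chosen after seeing the data. Fits of all lines that left out a library reused the dispersion trend of the full fit. Same-numbered libraries were not paired by their deviations, and the labels name no shared batch. One gene is not reported here.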

Additional observations from a re-analysis of the deposited data

Results flagged for a closer look

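The effects below differed between a lobular line and HCC1428 in the all-library fit with edgeR's quasi-likelihood test (adjusted p below 0.05 over 21447 genes). Each value is the log2 effect in the lobular line minus that in HCC1428. The effects share siNT_E2 libraries, so a value under E2 and one under a knockdown are not separate evidence.

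For the E2 effect in MM134 the differences were 1.74 for TFAP2C, 0.69 for GATA3, 0.60 for FOXA1, 0.57 for ELF3, 0.52 for XBP1, 0.38 for SPDEF and -0.84 for EHF. TFAP2C and XBP1 rose more than in HCC1428, FOXA1, GATA3, SPDEF and ELF3 fell less, and EHF fell more. In MM330 they were 0.87 for ELF3, 0.53 for TFAP2C, 0.41 for SPDEF, 0.31 for FOXA1, 0.22 for GATA3, 0.22 for XBP1, -0.31 for GRHL2, -0.31 for TFAP2A and -0.47 for EHF. The GATA3 value (adjusted p = 0.049) was lost in 37 of 45 fits that left out 1 library, with adjusted p from 0.01 to 0.22, without the filter on low counts (0.091) and with the replicate block (0.23). Among libraries of lower pseudogene share the XBP1 (0.12), TFAP2A (log2 -0.20, adjusted p = 0.28) and EHF (0.077) values were lost. XBP1 was also lost without the filter (0.11), without HCC1428 siNT replicate 1 (0.056) and without MM330 siNT replicate 2 (0.054), and TFAP2A without HCC1428 siNT_E2 replicate 2 (0.056).

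For receptor knockdown in MM134 the differences were -1.40 for TFAP2C, -1.27 for EHF, -1.10 for ELF3, -0.60 for XBP1, -0.59 for GATA3, -0.40 for GRHL2, -0.38 for FOXA1 and -0.19 for SPDEF. EHF and ELF3 fell in MM134 and rose in HCC1428. The SPDEF value (adjusted p = 0.018) was lost without the filter (0.22), with the replicate block (0.095), among libraries of lower pseudogene share (0.068) and without HCC1428 siNT_E2 replicate 4 (0.081). In MM330 they were -1.32 for ELF3, -0.83 for TFAP2C, -0.47 for FOXA1, -0.46 for GATA3, -0.46 for XBP1 and -0.35 for SPDEF. ESR1 changed by log2 -3.12 in MM134, -3.68 in MM330 and -1.0 in HCC1428 in the same comparison, and the part of that unequal knockdown in these differences was not tested.

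For FOXA1 knockdown in MM134 the differences were -2.46 for EHF, -1.48 for TFAP2C, -0.80 for XBP1, -0.68 for ELF3, -0.66 for GRHL2, -0.37 for FOXA1, -0.21 for SPDEF and 0.29 for TFAP2A. The TFAP2A value was lost among libraries of lower pseudogene share (adjusted p = 0.08) and without HCC1428 siNT_E2 replicate 2 (0.072). In MM330 they were -1.47 for ELF3, -0.92 for EHF, -0.67 for TFAP2C, -0.60 for XBP1, -0.39 for GRHL2, -0.25 for FOXA1, 0.34 for TFAP2A, 0.42 for SPDEF and 0.54 for TBX3. The fall of FOXA1 itself was thus larger in both lobular lines, and its part in the other values was not tested.

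For MDC1 knockdown in MM134 the differences were -1.65 for TFAP2C, -0.91 for XBP1, -0.19 for FOXA1 and 0.60 for EHF. In MM330 they were -0.95 for ELF3, -0.71 for TFAP2C, -0.56 for GATA3, -0.41 for XBP1, -0.39 for TBX3, -0.32 for FOXA1 and -0.26 for SPDEF. The FOXA1 value in MM134 (adjusted p = 0.034) was lost in 5 of 45 such fits and with the replicate block (log2 -0.17, adjusted p = 0.14). The TBX3 value in MM330 (0.012) was lost in 2 such fits, without HCC1428 siMDC1_E2 replicate 3 (0.07) or siNT_E2 replicate 2 (0.078), in limma-voom (0.11) and among libraries of lower pseudogene share (0.12).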

How the results depend on the processing

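Of 120 member values (10 members under E2 and the 3 knockdowns against siNT_E2, in 3 lines), 110 kept their call under every alternative, and none reversed with a call. The count of members called in HCC1428 under MDC1 knockdown was 7, and leaving out 1 library gave 4 (siMDC1_E2 replicate 3) to 8. The single call in HCC1428 between siER_E2 and siNT became 0 under RLE scaling, without the filter, with the replicate block, in DESeq2, with the compared libraries only and among libraries of lower pseudogene share, and leaving out 1 library gave 0 to 1. The cause was not tested. With the replicate block the other counts stayed within 1.5 times (for example 6 in place of 7 under MDC1 knockdown in HCC1428), and same-numbered libraries correlated above 0.1 in 4 of 26, 1 of 30 and 8 of 30 pairs in HCC1428, MM134 and MM330. The siNT_E2 libraries of HCC1428 are numbered 2, 3 and 4, so replicate 4 was alone in its block.

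The fit of libraries of lower pseudogene share had fewer libraries and lacked the higher class, and the parts of these cannot be told apart. Calls over all genes were 3092 in place of 4690 for E2 in MM330 and 2208 in place of 3710 for MDC1 knockdown there. For siER_E2 against siNT they were 1900 in place of 3604 in MM330 and 2176 in place of 3875 in HCC1428. For siMDC1_E2 against siER_E2 in MM330 they were 3571 in place of 5462. For the difference in receptor knockdown between MM330 and HCC1428 they were 3595 in place of 5428. Without the filter, XBP1 targets called under MDC1 knockdown in MM330 went from 7 to 3. With 3 libraries a group, small differences near the threshold are the least certain.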
